A study of Mus musculus with 12 samples.

Results

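Hox genes encode homeodomain transcription factors that give cells of the embryo their position along the head-to-tail axis. Mice carry them in 4 clusters, Hoxa, Hoxb, Hoxc and Hoxd, on chromosomes 6, 11, 15 and 2. Members at the same place in different clusters form paralogue groups numbered 1 to 13. The 39 genes described here are all protein-coding genes of the GENCODE M21 annotation whose symbol is Hoxa, Hoxb, Hoxc or Hoxd with a number, of 20807 autosomal and 21951 protein-coding genes in all. Of these, 11 lie in the Hoxa cluster, 10 in Hoxb, 9 in Hoxc and 9 in Hoxd.

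Nascent transcription was profiled by leChRO-seq, a chromatin run-on assay that labels and sequences the RNA held by engaged RNA polymerase. The cells were spermatocytes of adult wild-type (WT) mice, all of the same genotype, enriched by sedimentation (STAPUT) for leptonema/zygonema, pachynema or diplonema of meiotic prophase I. There were 12 libraries, 4 per substage. The measurement used here is the list of transcriptional regulatory elements (TREs) that dREG, a classifier of transcription initiation, called on the merged libraries of each substage. With 1 list per substage there were no replicates to compare, so no difference between substages was tested, and the enriched fractions also held some cells of other stages.

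Hox genes are a textbook target of Polycomb repression. Polycomb complexes place repressive histone marks over the clusters and keep them off where they are not needed, and MLL complexes counteract this at active members. During development, members are known to be switched on in the order of their place in the cluster. A dREG peak at a transcription start site (TSS) marks initiation there. The absence of a peak says that none was called at the depth of the merged libraries, which the lists do not give, and not that the gene was silent.

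The 39 Hox genes had fewer peaks at their TSSs than protein-coding genes in general. A peak edge lay under 1000 bp from a Hox TSS for 9 of 39 genes in leptonema/zygonema (23.1%), beside 60.7% of autosomal protein-coding genes. In pachynema the count was 13 of 39 (33.3%) beside 61.2%, and in diplonema it was 5 of 39 (12.8%) beside 52.3%. The lists differ in length, with 71107, 68352 and 38603 peaks. When each was taken by score down to the shortest, 8, 8 and 5 Hox genes had a peak. The autosomal shares were then 53.4%, 53.8% and 52.3%. The 95% Wilson intervals of the Hox shares ran from 12.6% to 38.3%, from 20.6% to 49.0% and from 5.60% to 26.7%, each below the autosomal share of its substage. These intervals cover counting only, and neighbours in a cluster share regulation and peaks. When a TSS had to lie inside a peak, the Hox counts were 5, 7 and 3, beside 57.0%, 57.4% and 48.6% of autosomal genes.

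Across the 3 lists, 15 Hox genes (38.5%) had a peak in at least 1 substage, beside 64.8% of autosomal genes. Only 4 (10.3%) had one in all 3 substages, beside 50.2%. These 4 were Hoxa4, Hoxc6, Hoxd8 and Hoxd10, of which Hoxc6 was called in no list from coding transcripts alone. Hoxd10 had no pachynema peak in lists of equal length and no diplonema peak at a score of at least 0.5. Another 4, among them Hoxa9, Hoxb3 and Hoxd9, had a peak in leptonema/zygonema and pachynema but none called in diplonema, a pattern of 7.45% of autosomal genes. Hoxb4, Hoxc5, Hoxc8, Hoxc10 and Hoxd3 had one in the pachynema list alone, as did 2.12% of autosomal genes. In lists of equal length Hoxc5 was the only 1 of these 5 with a pachynema peak. Hoxd1 had one in the leptonema/zygonema list alone, as did 2.84% of autosomal genes, and Hoxa7 in the diplonema list alone, as did 0.437%. The Hoxd1 call was lost in lists of equal length, and neither gene was called at a score of at least 0.5. The other 24 Hox genes had no peak in any list, against 35.2% of autosomal genes.

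**Figure D1:**
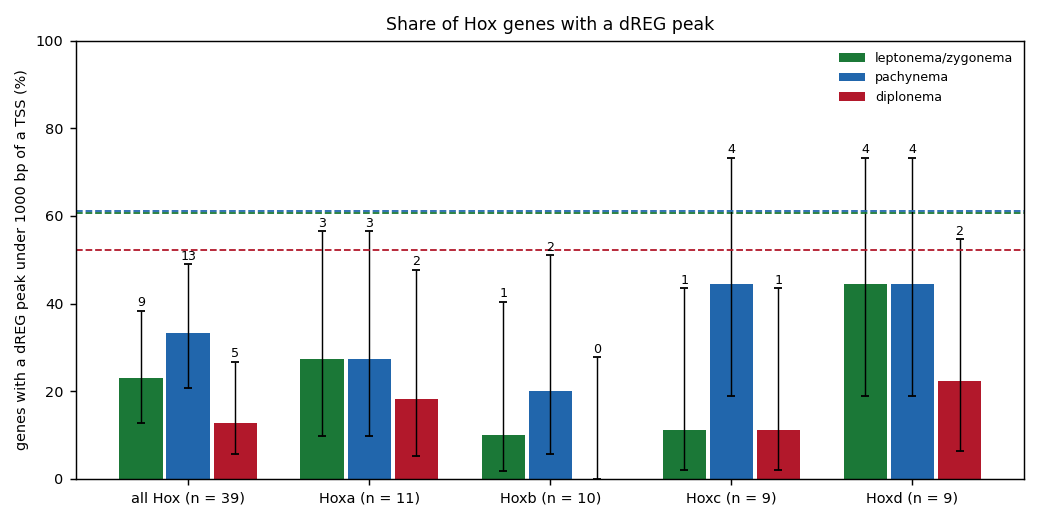
Share of Hox genes, in all and by cluster, with a dREG peak under 1000 bp of a TSS (vertical axis, percent) in each substage. Bars are shares, digits above them the number of genes, error bars 95% Wilson intervals for counting, and dashed lines the shares of autosomal protein-coding genes (60.7%, 61.2% and 52.3%). All 3 bars for the 39 Hox genes stand below the lines, and Hoxb has no bar in diplonema.

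Promoter sequences show what the called and uncalled starts look like. They come from a RefSeq table on GRCm38.p6, which held 22 of the 39 Hox genes. Hoxd8 had the highest leptonema/zygonema score of the Hoxd genes, and Hoxd10 was chosen after its values were seen because peaks covered it in all 3 lists. Hoxb8 is a paralogue of Hoxd8 and Hoxa6 a paralogue of Hoxc6, both without a peak in any list. Capitals mark CpG dinucleotides. Each run reads 5′ to 3′ on the gene's strand and ends before the start of the gene.
Hoxd8, chr2:74704365-74704614, plus strand: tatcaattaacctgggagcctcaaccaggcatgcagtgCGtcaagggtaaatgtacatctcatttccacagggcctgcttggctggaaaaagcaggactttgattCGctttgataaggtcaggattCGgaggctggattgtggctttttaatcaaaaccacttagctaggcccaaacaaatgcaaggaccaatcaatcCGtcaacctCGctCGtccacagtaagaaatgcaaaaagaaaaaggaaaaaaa
Hoxd10, chr2:74691641-74691890, plus strand: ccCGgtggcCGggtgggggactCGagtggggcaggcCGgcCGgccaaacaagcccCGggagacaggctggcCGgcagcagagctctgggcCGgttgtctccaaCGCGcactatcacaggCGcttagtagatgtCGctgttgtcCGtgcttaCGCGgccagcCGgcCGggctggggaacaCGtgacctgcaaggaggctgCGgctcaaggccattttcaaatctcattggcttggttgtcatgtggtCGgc
Hoxb8, chr11:96281655-96281904, plus strand: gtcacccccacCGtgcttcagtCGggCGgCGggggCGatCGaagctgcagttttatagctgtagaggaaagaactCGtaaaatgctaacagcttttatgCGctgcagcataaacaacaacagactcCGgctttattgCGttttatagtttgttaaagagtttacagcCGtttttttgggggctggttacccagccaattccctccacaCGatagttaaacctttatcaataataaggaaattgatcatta
Hoxa6, chr6:52208723-52208922, minus strand: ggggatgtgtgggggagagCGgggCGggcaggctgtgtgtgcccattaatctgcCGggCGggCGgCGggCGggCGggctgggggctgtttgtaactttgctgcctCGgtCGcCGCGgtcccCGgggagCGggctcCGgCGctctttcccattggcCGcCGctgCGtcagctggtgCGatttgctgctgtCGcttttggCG

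The Hoxd8 run holds 6 CpG in 250 bases, and peaks covered 150, 84 and 0 of its bases in leptonema/zygonema, pachynema and diplonema. The Hoxd10 run holds 20 CpG, and peaks covered 230, 200 and 250 of its bases in the same order. The Hoxb8 run holds 12 CpG in 250 bases and the Hoxa6 run 22 CpG in 200 bases, the densest of the 4, and no peak touched either in any substage.

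CpG-rich starts are the class of promoter that most often carried a peak in these cells, and Hox genes with such starts did not follow the class. CpG content was read from 250 bases before to 50 bases after the outermost 5′ end of each gene. A start was called CpG-rich when its observed over expected CpG ratio was at least 0.6 and its GC content above 50%. By this rule 18 of 39 Hox genes (46.2%) and 42.3% of autosomal genes had a CpG-rich start. A peak was found for 4 of the 18 genes in leptonema/zygonema beside 89.0% of all CpG-rich autosomal starts, for 5 beside 89.2% in pachynema, and for 2 beside 79.7% in diplonema. Among the other 21 Hox genes the counts were 5 (23.8%), 8 (38.1%) and 3 (14.3%), beside 40.0%, 40.7% and 32.3%. The pachynema share of these genes was thus near that of autosomal genes.

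Many Hox genes have several starts, and the outermost is not always the main one. With a CpG-rich window allowed at any annotated TSS, a choice made after the values were seen, 29 Hox genes (74.4%) and 55.8% of autosomal genes qualified. Of the 29, 7, 9 and 4 had a peak in leptonema/zygonema, pachynema and diplonema. The autosomal shares in this class were 86.6%, 87.2% and 76.8%. Hox genes had a median of 2 TSS positions and autosomal genes 3.

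**Figure D2:**
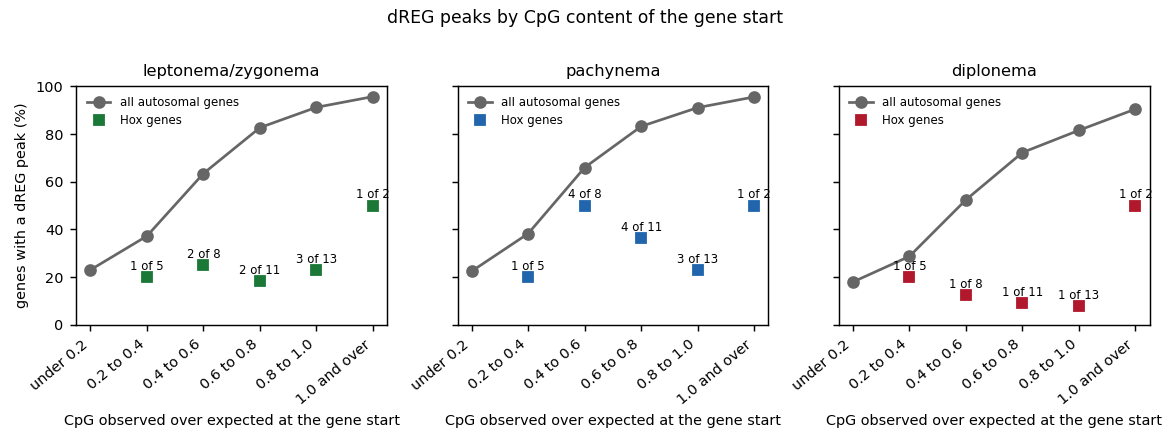
Share of genes with a dREG peak (vertical axis, percent) against the CpG observed over expected ratio of the gene start (horizontal axis, bins), in 1 panel per substage. Grey circles are all autosomal protein-coding genes and coloured squares Hox genes, with counts. The grey line climbs with CpG content. The squares stay at or below 4 of 11 in the bin from 0.6 to 0.8 and 3 of 13 in the bin from 0.8 to 1.0. They reach 4 of 8 in pachynema in the bin from 0.4 to 0.6, beside 66.0% of autosomal genes. In the bin of 1.0 and over they stand at 1 of 2 in each panel.

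The Hox starts were also searched on both strands of the same window for GCAGTT, a core of the MYB site, and TGATNNAT, a site for paired HOX and PBX proteins. GCAGTT was present at 6 of 39 Hox starts (15.4%) and 13.3% of autosomal starts. TGATNNAT was present at 8 of 39 (20.5%) and 7.17% of autosomal starts. Of the 15 Hox genes with a peak, 1 held GCAGTT and 2 held TGATNNAT. These are matches of letters only. Neither motif contains the other, and a match is not a bound site.

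Where a Hox gene did have a peak, its score was low for a promoter. The dREG score is higher for a stronger initiation signature, and it was read only within a list. The best scores of the called Hox genes had a median of 0.624, 0.561 and 0.529 in leptonema/zygonema, pachynema and diplonema. The median best score of all autosomal protein-coding genes with a peak was 1.051, 1.034 and 0.839. Ranked among those genes, the called Hox genes had median percentiles of 16.1, 14.6 and 20 and highest percentiles of 41.6, 44.0 and 39. None of the called Hox genes reached the middle of the ranking in its list.

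In leptonema/zygonema Hoxa4 (0.981) was highest, followed by Hoxb3 and Hoxa9, with Hoxd8, Hoxc6, Hoxd9 and Hoxd10 lower in this order and Hoxd1 (0.376) lowest. In pachynema Hoxa4 (0.978) was again highest and Hoxc10 (0.342) lowest. In diplonema Hoxd8 (0.739) stood above Hoxa4, Hoxc6, Hoxd10 and Hoxa7 (0.470). No error can be attached to a score, so neighbours in these orders cannot be told apart from each other.

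**Figure D3:**
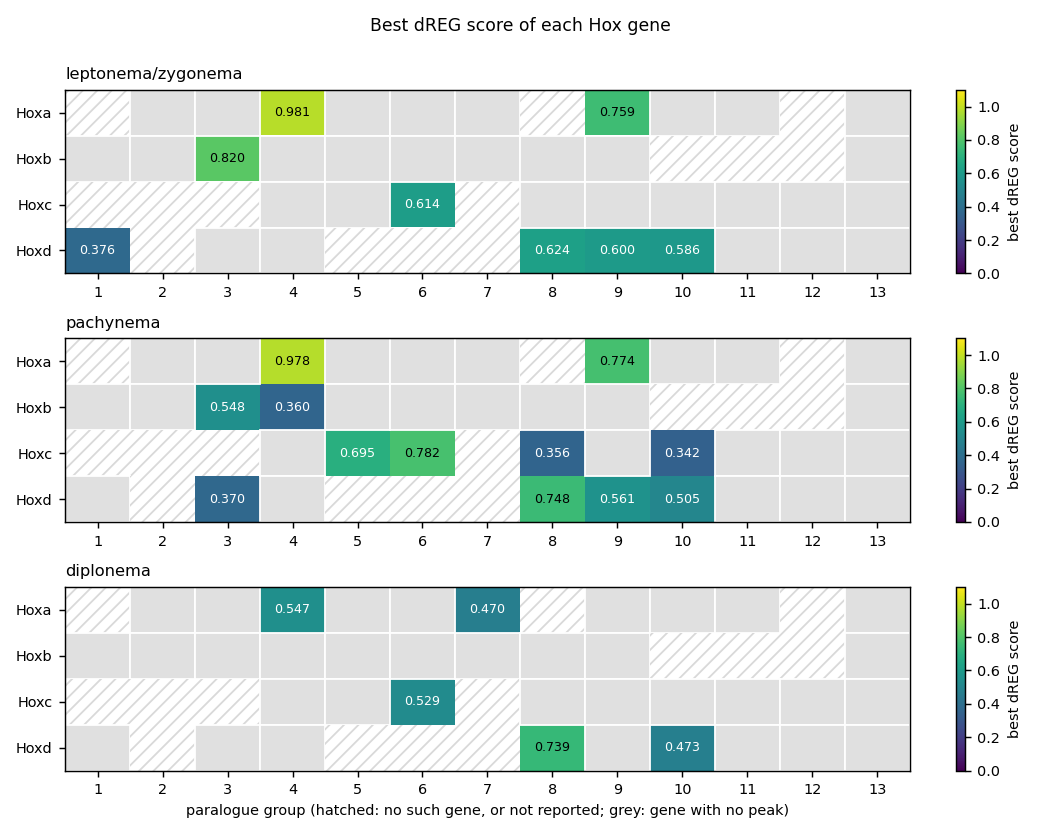
Best dREG score of each Hox gene (colour and number) by paralogue group (horizontal axis, 1 to 13) and cluster (rows), in 1 panel per substage. Grey cells are genes with no peak, and hatched cells have no such gene or one that is not reported here; scored cells lie between groups 1 and 10, and the columns for groups 11 to 13 are empty in all 3 panels.

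By place in the cluster, paralogue groups 1 to 3, the first to be used in the embryo and active in the hindbrain, had 3, 3 and 0 of 8 genes with a peak in leptonema/zygonema, pachynema and diplonema. Groups 4 to 8, which pattern the neck and trunk, had 3, 6 and 4 of 15. Groups 9 to 13, which pattern the lower trunk, limbs and tail, had 3, 4 and 1 of 16. All of the latter were in groups 9 and 10. The autosomal shares were 60.7%, 61.2% and 52.3%. The Wilson interval held this share for groups 1 to 3 in leptonema/zygonema and pachynema, 13.7% to 69.4% in each. It also did so for groups 4 to 8 in pachynema, 19.8% to 64.3%. In lists of equal length Hoxb4, Hoxc8, Hoxc10, Hoxd3 and Hoxd10 had no pachynema peak, and Hoxd1 no leptonema/zygonema peak. The 9 genes of groups 11 to 13 had 0 peaks in each list. This split was chosen after the values were seen, so its Wilson upper limit of 29.9% bounds nothing.

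The Hoxa cluster had 3, 3 and 2 of 11 genes with a peak, with Hoxa4 and Hoxa9 among them in the first pair of substages and Hoxa4 and Hoxa7 in diplonema. Autosomal shares of 60.7%, 61.2% and 52.3% stand beside the counts of each cluster. Hoxa4, a group 4 gene of the trunk, had the highest Hox score in the leptonema/zygonema and pachynema lists. Its single TSS (chromosome 6, position 52191753, minus strand) lay inside a peak in all 3 lists. That peak scored 0.981 in leptonema/zygonema, where it spanned 880 bp. In pachynema 6 peaks lay near the TSS, of which the one over it scored 0.837 and the highest, 843 bp away inside the gene, 0.978. In diplonema the peak over the TSS scored 0.524 and the one 913 bp away 0.547.

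Hoxa9, a group 9 gene with a known role in blood progenitors, had a peak 20 bp (0.759) and 60 bp (0.774) from an internal TSS, 3719 bp from its outermost 5′ end. Its nearest diplonema peak was 9619 bp away.

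Hoxa7 was called only in diplonema, through a peak of 0.470 that lay 882 bp from 1 of its 5 TSS positions. The adjoining stretch at chr6:52215671-52216300 held a stronger peak, 0.933 in pachynema and 0.692 in diplonema, whose edge was 1152 and 1172 bp from Hoxa7. That element was thus just outside the distance that counts as a promoter, and no leptonema/zygonema peak was called there. The uncalled genes of the cluster were Hoxa2, Hoxa3, Hoxa5, Hoxa6, Hoxa10, Hoxa11 and Hoxa13. Of these, Hoxa3 came nearest to a peak, at 2335 bp in pachynema, and Hoxa13 was farthest, at 44232 bp in diplonema.

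The Hoxb cluster had the fewest called genes over the 3 lists together, with Hoxb3 in leptonema/zygonema, Hoxb3 and Hoxb4 in pachynema, and none of 10 in diplonema. Hoxb3, a hindbrain gene of group 3, had a peak of 0.820 in leptonema/zygonema, 35 bp from an internal TSS (chromosome 11, position 96340945). The pachynema peak there scored 0.548 at 5 bp. This TSS lies 17619 bp from the outermost 5′ end, and it belongs to a transcript not annotated as coding, since no Hoxb3 call was made in pachynema from coding transcripts alone. Hoxb4, a group 4 gene known from blood stem cells, had 1 weak pachynema peak of 0.360, 304 bp from its TSS. Hoxb1, Hoxb2, Hoxb5, Hoxb6, Hoxb7, Hoxb8, Hoxb9 and Hoxb13 had no peak. The last was 69276 bp from the nearest diplonema peak, the largest distance of any Hox gene.

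The Hoxc cluster had 1, 4 and 1 of 9 genes called in leptonema/zygonema, pachynema and diplonema. In pachynema the Wilson interval, 18.9% to 73.3%, held the autosomal share. In lists of equal length, and also at a score of at least 0.5, the counts were 1, 2 and 1. Hoxc6, a trunk gene of group 6, was called in every list, each time from starts of transcripts not annotated as coding, since no list had a Hoxc6 call from coding transcripts alone. Its outermost TSS (chromosome 15, position 102998257) was inside a peak of 0.332 in leptonema/zygonema and 0.512 in pachynema, and 47 bp from a peak of 0.316 in diplonema. A stronger peak downstream, 884, 834 and 864 bp from that TSS, scored 0.614, 0.782 and 0.529. The higher score lay at the downstream peak in all 3 lists.

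The other Hoxc calls were in pachynema alone and mostly weak. Hoxc8 had a peak of 0.356 at 354 bp and Hoxc10 one of 0.342 over its TSS. Hoxc5 was called through the Hoxc10 peak, 633 bp from the start of a long Hoxc5 transcript, and through a peak of 0.695 at 986 bp from its other TSS. The latter covers the start of Mir615, a microRNA gene within Hoxc5, and is nearer to it than to Hoxc5. The matching diplonema peak over Mir615 scored 0.720 and lay 1076 bp from Hoxc5, outside the limit. Hoxc4, Hoxc9, Hoxc11, Hoxc12 and Hoxc13 had no peak at a TSS. Hoxc13 lay 60328 bp from the nearest leptonema/zygonema peak, the largest distance in that list.

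The Hoxd cluster had 4, 4 and 2 of 9 genes with a peak in leptonema/zygonema, pachynema and diplonema. The Wilson interval, 18.9% to 73.3% in the first pair of substages and 6.32% to 54.7% in diplonema, held the autosomal share in each. A run of 3 neighbouring genes was called. Hoxd8, Hoxd9 and Hoxd10, which pattern the lower trunk and hindlimb, all had peaks in leptonema/zygonema and pachynema. Hoxd8 (chromosome 2, outermost TSS at 74704615) had 4, 4 and 2 peaks in the leptonema/zygonema, pachynema and diplonema lists, with best scores of 0.624, 0.748 and 0.739. Its diplonema percentile of 39 was the highest of any Hox gene in that list. Hoxd9 had a peak of 0.60 at 4 bp from its TSS (position 74697727) in leptonema/zygonema and one of 0.561 over it in pachynema, and its nearest diplonema peak was 5657 bp away. Hoxd10, a gene of lumbar motor neurons, had its TSS (position 74691924) inside a peak of 0.586, 0.505 and 0.473 in the 3 lists.

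Hoxd1 and Hoxd3 completed the called genes of this cluster, each in a single list. Hoxd1, of group 1, had a leptonema/zygonema peak of 0.376 at 391 bp. Hoxd3, of group 3, was called in pachynema by a peak of 0.370, 929 bp from 1 of its 6 TSS positions. The corresponding leptonema/zygonema peak stood at 1339 bp. Hoxd4, Hoxd11, Hoxd12 and Hoxd13 had no peak. Around the limit of 1000 bp, the calls just inside were Hoxc5 in pachynema (633 bp), Hoxa7 in diplonema (882 bp) and Hoxd3 in pachynema (929 bp). Just outside were Hoxc5 in diplonema (1076 bp), Hoxa7 in pachynema (1152 bp) and Hoxd3 in leptonema/zygonema (1339 bp).

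Although few Hox promoters were called, the clusters were not empty of TREs. Over the 499.8 kb spanned by the 4 clusters with 1000 bp on each side leptonema/zygonema had 29 peaks, pachynema 40 and diplonema 21. That is 5.80, 8.00 and 4.20 per 100 kb, beside 2.80, 2.69 and 1.52 per 100 kb over all autosomes, which include long stretches without genes. Of these peaks, 18, 23 and 9 lay near a Hox TSS. A further 4, 6 and 8 lay near the TSS of another annotated gene only, and 7, 11 and 4 near none. Hoxd held 13, 14 and 9 of them and Hoxb 7, 6 and 1.

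Overlap between the lists, by at least 1 bp, was counted for the peaks of the 4 clusters and for all autosomal peaks. Of the 29 leptonema/zygonema peaks in the clusters, 21 (72.4%) overlapped a pachynema peak, beside 76.2% of all autosomal leptonema/zygonema peaks, and 9 (31.0%) a diplonema peak, beside 48.6%. Of the 40 pachynema peaks, 23 (57.5%) overlapped one of leptonema/zygonema, beside 78.9%, and 20 (50.0%) one of diplonema, beside 56.1%. Of the 21 diplonema peaks, 17 (81.0%) overlapped a pachynema peak, beside 93.0%, and 9 (42.9%) one of leptonema/zygonema, beside 84.2%. The lists differ in length, and some peaks adjoin at 1 site, as at Hoxa4 and Hoxd8, so they are not separate observations. Each of these cluster shares, with no test, stood below the autosomal share of the same pair of lists. The shares of 72.4% and 50.0% were near the autosomal 76.2% and 56.1%.

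**Figure D4:**
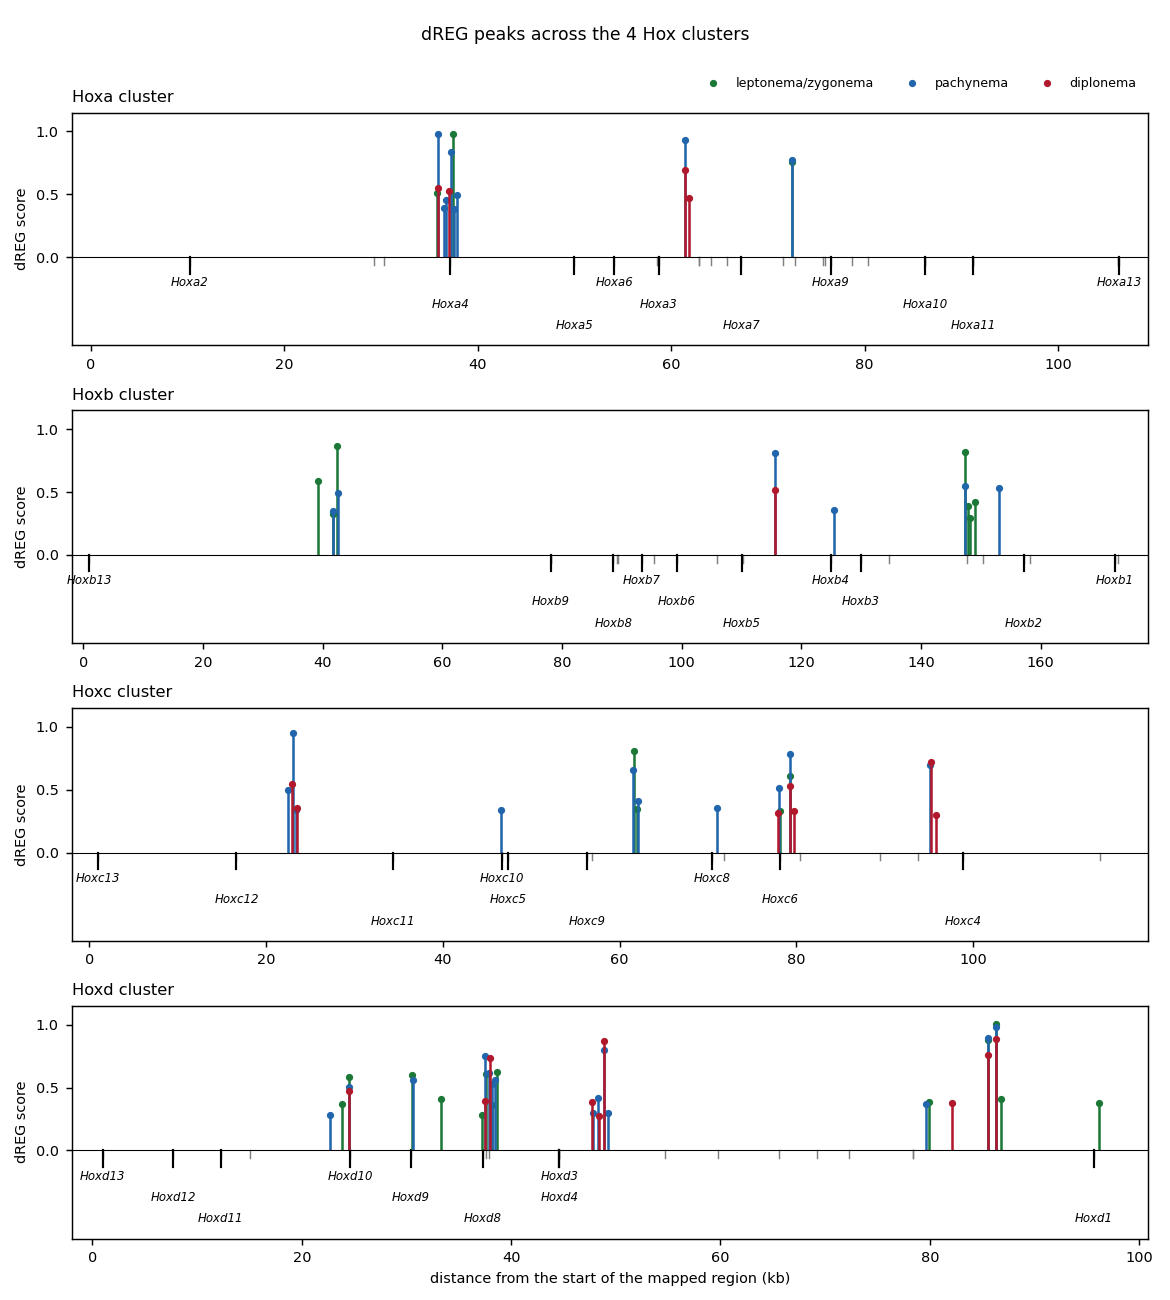
Positions of dREG peaks in the 4 Hox clusters (horizontal axis, distance in kb from the start of the mapped region; vertical axis, dREG score), coloured by substage. Black ticks under the line mark the outermost 5′ end of each Hox gene and grey ticks its other TSSs; 1 gene and the peaks near it are not drawn. The highest peak of the Hoxd map, with scores of 1.002, 0.983 and 0.884, stands between Hoxd3 and Hoxd1 and not at a Hox start.

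The highest-scoring element of the clusters in each list lay at starts of non-coding genes. Haglr, a long non-coding RNA gene between Hoxd1 and Hoxd3, and the neighbouring lincRNA gene Gm14424 have starts within a pair of adjoining peaks at chr2:74752541-74753970. The Haglr starts there are internal, and no peak lay at its outermost 5′ end (position 74762896, minus strand) in pachynema or diplonema. The peak over them scored 1.002, 0.983 and 0.884 in leptonema/zygonema, pachynema and diplonema. The peak over Gm14424 scored 0.877, 0.897 and 0.759. The lincRNA Gm14426 starts within 1000 bp of the same peaks. In each list the Haglr peak had the highest score of all peaks in the 4 clusters. Next came a Hoxa4 peak in leptonema/zygonema (0.981) and pachynema (0.978), and one of the antisense gene Hoxd3os1 in diplonema (0.871). No error can be attached to a score, so these cannot be told apart from the Haglr peak.

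The antisense gene Hoxd3os1 had a peak over its start that was called in pachynema (0.803) and diplonema (0.871) and not in leptonema/zygonema. Mir615 had the same pattern, with 0.695 and 0.720. Gm28793 beside Hoxd9 had one in the first pair of substages. Gm11536 beside Hoxb3 (0.421) and Gm44463 in Hoxd (0.409) had one in leptonema/zygonema alone. Of the 47 non-Hox genes inside the clusters, 44 are not protein-coding, and 8, 8 and 5 of these had a peak in leptonema/zygonema, pachynema and diplonema. The shares of all autosomal genes that are not protein-coding were 18.1%, 18.6% and 13.7%, so these counts were near the background, and several of the genes share a peak. Hotair, the antisense RNA of the Hoxc cluster, had none at its start.

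Several strong peaks lay away from every annotated start. At chr15:102942931-102943430, between the starts of Hoxc12 and Hoxc11, a peak scored 0.952 in pachynema, and an overlapping one scored 0.544 in diplonema. At chr15:102981431-102981930, between the starts of Hoxc9 and Hoxc8, a peak scored 0.806 in leptonema/zygonema and 0.659 in pachynema. In the wide gap between the starts of Hoxb13 and Hoxb9, a peak at chr11:96235421-96236070 scored 0.863 in leptonema/zygonema and 0.489 in pachynema. Between the starts of Hoxb5 and Hoxb4, a peak at chr11:96308671-96309200 scored 0.807 in pachynema and 0.514 in diplonema, 1761 and 1711 bp from the nearest TSS, that of Hoxb5os. Such peaks are candidate enhancers or unannotated starts, which the lists do not distinguish.

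The protein-coding genes that border the clusters differed from cluster to cluster. Skap2 beside Hoxa, Calcoco1 and Smug1 around Hoxc, and Mtx2 next to Hoxd1 had peaks in all 3 lists. Skap2 scored 1.097, 1.233 and 1.064 in leptonema/zygonema, pachynema and diplonema, Calcoco1 1.260, 1.179 and 0.808, and Mtx2 1.270, 1.204 and 0.881, each above every Hox gene of its list. Smug1 scored 1.161, 0.821 and 0.437, below Hoxa4 in pachynema and below all 5 called Hox genes in diplonema. Evx1 and Evx2, homeobox genes at the far ends of Hoxa and Hoxd, had none, and neither did Ttll6 and Skap1 around Hoxb. The Hoxd border thus ran from Evx2 with no peak, 8753 bp beyond the cluster, to Mtx2 with peaks in all lists, 60661 bp beyond the other end.

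Genes whose products work with or on Hox genes were compared by the same rule. Of the 9 TALE genes, which encode the PBX, MEIS and PKNOX partners of HOX proteins, 7, 7 and 4 had a peak in leptonema/zygonema, pachynema and diplonema. These shares of 77.8%, 77.8% and 44.4% stand beside 60.7%, 61.2% and 52.3% of all autosomal genes. Pbx4, a PBX gene known for its expression in testis, scored 1.183, 1.084 and 0.940. Pbx3 scored 1.072, 1.199 and 0.768 and Pknox1 1.059, 1.010 and 0.795. Meis2 and Meis3 had no peak in any list. The ParaHox genes, the sister cluster family (Gsx1, Gsx2, Pdx1, Cdx1 and Cdx2), had 0 of 5 in each list, beside the same autosomal shares.

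Genes of the chromatin complexes that act on Hox clusters were read beside the same autosomal shares, 60.7%, 61.2% and 52.3% of all genes and 89.0%, 89.2% and 79.7% of those with a CpG-rich start. Of 10 genes of Polycomb repressive complex 2, which methylates histone H3 at lysine 27, 10, 9 and 9 had a peak in leptonema/zygonema, pachynema and diplonema. Among them Ezh1 (1.291, 1.254 and 0.702) and Ezh2 (1.242, 1.225 and 1.085) encode the methyltransferases, Suz12 (1.289, 1.264 and 1.221) a core subunit and Jarid2 (1.285, 1.138 and 0.691) an accessory one. Of 20 autosomal genes of Polycomb repressive complex 1, which ubiquitinates histone H2A, 20, 18 and 16 had a peak. Kdm2b, which brings a variant of that complex to CpG islands, scored 1.401, 1.248 and 0.948. Phc1 scored 1.344, 1.288 and 1.047, Pcgf3 1.280, 1.160 and 0.980, and Pcgf5 1.261, 1.227 and 1.046.

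For the MLL complexes, which methylate histone H3 at lysine 4, 8, 8 and 7 of 8 genes had a peak. Wdr5 (1.368, 1.312 and 0.709), Rbbp5 (1.224, 1.128 and 0.838) and Dpy30 (1.192, 1.162 and 1.178) encode shared subunits, and Psip1 (1.165, 1.304 and 1.218) a chromatin tether. A peak at a gene of a complex does not measure the activity of the complex at Hox genes, for which the lists hold no value.

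The labelled cell type was checked against its markers. All 12 spermatocyte markers had a peak in all 3 lists, led in leptonema/zygonema by Meiob (1.317), Hormad1 (1.293), Brdt (1.268) and Sycp1 (1.245). Spermatogonial markers had a peak for 6, 6 and 4 of 8 genes, with Dmrt1 (1.071), Sall4 (1.058), Kit (1.037) and Id4 (1.026) highest in leptonema/zygonema. These shares of 75.0%, 75.0% and 50.0% were near the autosomal shares of 60.7%, 61.2% and 52.3% for so few genes. Lin28a (0.45) was the lowest called in leptonema/zygonema, and Gfra1 and Nanos3 had no peak in any list. Spermatid markers had one for 5 of 6 genes (83.3%) in each list, beside the same autosomal shares. Spaca1 (1.319), Acrv1 (1.316) and Tnp1 (0.981) led in leptonema/zygonema, the other called markers scored lower there, and Tnp2 had no peak in any list.

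Hox genes are used in somatic cells of many organs, so markers of the somatic cells of the testis were read beside them. Of 26 such markers, 4 had a leptonema/zygonema peak (15.4%), 8 a pachynema peak (30.8%) and 4 a diplonema peak (15.4%), beside 23.1%, 33.3% and 12.8% of Hox genes and 60.7%, 61.2% and 52.3% of autosomal genes. An alternative with lists of equal length was added for the markers after the values were seen. It gave 1, 3 and 4 markers, beside 8, 8 and 5 Hox genes and autosomal shares of 53.4%, 53.8% and 52.3%. In these lists the marker count was highest in diplonema and the Hox count lowest there, so neither set was highest in pachynema alone. Sertoli markers had 2, 4 and 3 of 6, with Vim (0.579, 0.496 and 0.510) and Sox9 (0.385, 0.652 and 0.564) called in every list and Amh and Fshr in none. Leydig markers had 0, 2 and 1 of 7, with Star, Cyp17a1 and Insl3 in none. Of the peritubular myoid markers, Des alone had a peak (0.311 and 0.422, none in diplonema). Of the endothelial markers Kdr alone did (0.374 and 0.564, none in diplonema), and the 4 macrophage markers had none. The highest somatic marker score in pachynema was 0.695, that of Cldn11, which is below Hoxa4, Hoxa9, Hoxc6 and Hoxd8 in that list. In leptonema/zygonema Vim (0.579) was highest, above Hoxd1 alone of the called Hox genes. In diplonema Sox9 (0.564) was highest, below Hoxd8 (0.739) and above the other called Hox genes. The part of somatic cells in the Hox peaks was not tested.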

How the data were processed

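The authors prepared leChRO-seq libraries from STAPUT-enriched spermatocytes (4 per substage, 12 in all), removed duplicates, trimmed adapters with cutadapt and mapped reads with BWA to mm10. dREG was run on the merged libraries of each substage. The authors deposited a dREG score for each peak, a value without a common scale across substages, and a p-value, of which the sources used here do not say whether it is adjusted. A p-value of exactly 0 was listed for 29.4%, 27.8% and 24.1% of the peaks, down to scores of 0.281, 0.273 and 0.268, so p-values ranked nothing here. The lists hold no read counts, and no depth was assigned to them here.

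Each peak was set against the TSSs of all transcripts of a gene (GENCODE M21, 19 autosomes), and a gene was called when a peak edge lay under 1000 bp from one. A percentile ranks the best score of a gene among the best scores of all autosomal protein-coding genes called in the same list. Wilson intervals are at the 95% level. CpG and motifs were read from the GRCm38.p6 genome, the same build as mm10. The distance rule, CpG measure and motif scan were tested on simulated data. Python 3.11.15, numpy 2.4.6, pandas 2.3.3 and matplotlib 3.10.9 were used.

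The members and the comparison lists were chosen with earlier results of these data known. Because 15 Hox genes had a peak, the rule gave full values to the 3 highest scores of each cluster in leptonema/zygonema and to each gene whose call differed between substages, and in each comparison list to the 4 highest in leptonema/zygonema. Other genes named were chosen after their values were seen, as were the limits that define a CpG-rich start. Only 4 of the sequences that the rule allowed or that were added are printed, without the 50 bases after the start. Alternatives changed the distance, the TSS set, the score or p-value limit, the list length and the assignment of shared peaks. Some genes that the rule names are counted in the totals but not reported here. Other assays of the study were not used here.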

Additional observations from a re-analysis of the deposited data

How the results depend on the processing

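The share of Hox genes with a peak was below that of autosomal genes in each of the 33 combinations of setting and substage, main setting included, at 0.158 to 0.571 of it. Of 180 recomputed values for Hox and autosomal genes, 129 stayed within 1.5 times the main count or within the interval of the main share. Requiring the TSS inside the peak gave 5, 7 and 3 Hox genes in leptonema/zygonema, pachynema and diplonema, beside 57.0%, 57.4% and 48.6% of autosomal genes. A dREG score of at least 0.5 gave 8, 9 and 3, beside 54.7%, 54.4% and 43.1%. Lists of equal length, each taken by score down to the shortest, gave 8, 8 and 5, so the pachynema count of 13 did not stand above leptonema/zygonema there, beside 53.4% and 53.8% of autosomal genes in those 2 lists.

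Under the other settings the Hox totals ran from 7 to 10, from 10 to 14 and from 4 to 6, within 1.5 times the main counts. The autosomal share was 59.6%, 60.2% and 51.4% under 500 bp, 62.5%, 62.8% and 53.5% under 2000 bp, 59.0%, 59.6% and 50.8% with protein-coding transcripts, 55.9%, 56.5% and 48.1% with the outermost 5′ end, and 58.9%, 59.3% and 50.0% at a p-value of at most 0.01. With peaks nearest to the gene itself it was 51.6% in diplonema. Of the counts per cluster under all settings, 22 moved by over 1.5 times, 21 of them lower. Hoxc6 was not called in any list, and Hoxb3 not in pachynema, from protein-coding transcripts alone, and Hoxc5 was not called from peaks nearest to it. No paired analysis was possible because the libraries of a substage were merged before peaks were called, which also means that leaving out a replicate could not be done. The lists give no depth, so a peak missed for want of reads cannot be told from one that was not there.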

Other observations

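Other families of developmental transcription factors, like Hox genes known targets of Polycomb, were counted by the same rule. Of 60 autosomal genes of the Pax, Tbx, Lhx, sine oculis homeobox, Dlx, Nkx and Gata families, the leptonema/zygonema list had a peak for 19 (31.7%), the pachynema list for 25 (41.7%) and the diplonema list for 15 (25.0%), between the Hox share and the autosomal share in each list. Some members scored above every Hox gene in leptonema/zygonema, but only Nkx2-6 did so in all 3 lists. Nkx2-6 scored 1.349, 1.275 and 0.951 in the 3 substages, Pax5 1.300, 0.839 and 0.468, and Dlx6 1.117, 1.117 and 0.640. Dlx1 scored 1.058 and 0.833 and was not called in diplonema. Median best scores of the families lay on both sides of the Hox medians of 0.624, 0.561 and 0.529. They were 0.985, 0.833 and 0.640 for Dlx genes and 0.334, 0.636 and 0.412 for Tbx genes.

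By family, the counts stand beside autosomal shares of 60.7%, 61.2% and 52.3% in the 3 lists. Dlx genes, which pattern the jaw and forebrain in pairs, had a peak for 4, 5 and 3 of 6. Lhx genes had one for 5, 4 and 1 of 8, with Lhx2 highest in leptonema/zygonema (0.987, 0.949 and 0.342). Nkx genes had 3, 6 and 4 of 14, Gata genes 2, 3 and 2 of 5 with Gata4 (0.925, 0.946 and 0.482) highest in leptonema/zygonema, Tbx genes 3, 3 and 3 of 12 with Tbx3 (0.698, 0.726 and 0.366), Pax genes 2, 2 and 1 of 9, and sine oculis homeobox genes 0, 2 and 1 of 6. These are counts from 1 list per substage and were not tested.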
